A study of Homo sapiens with 16 samples.

Results

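Conversion rates were followed for the nuclear-encoded mRNAs of respiratory complexes II, III and IV and of ATP synthase (complex V) in the human monocytic leukaemia line THP-1. Genes were taken by symbol (the 4 SDH genes SDHA to SDHD, names beginning with UQCR, CYC1, COX4 to COX8 and names beginning with ATP5) at an abundance of at least 1 CPM, the count of a gene scaled to library size. Among the 60564 genes measured, 51 had such a symbol and 45 passed, 4 of complex II, 10 of complex III, 11 of complex IV and 20 of complex V. The abundance threshold left out COX4I2, COX6A2, COX6B2, COX7A1, COX7B2 and COX8C. The member nearest to the threshold was ATP5MGL at 1.35 CPM, and COX7B2, at 0.608 CPM, was the nearest below it. The study used SLAM-seq, in which 4-thiouridine (4sU) taken into new RNA is read as T-to-C conversions, in wild-type cells (control) and in cells with a knockdown of ALKBH5 (A5-KD). ALKBH5 is an enzyme that removes the methyl mark m6A from adenosines in RNA. Both genotypes were labelled with 100 µM 4sU for 1 h, washed, and kept in medium with 10 mM uridine, the chase, for 0, 1.5, 4.5 or 7.5 h. The 8 groups of 2 genotypes and 4 times held 2 libraries of polyadenylated RNA each, 16 in all. The labels give neither the agent that made the knockdown nor whether the cells were a clone, and they do not say that replicates were separate cultures. The p-values then reflect only the spread between these libraries, which may be technical.

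Oxidative phosphorylation is carried out in the inner mitochondrial membrane. Complex II passes electrons from succinate to ubiquinone and is also an enzyme of the citric acid cycle. Complex III passes them from ubiquinol to cytochrome c, complex IV passes them on to oxygen, and complex V uses the proton gradient to make ATP. Complex II is built from nuclear-encoded subunits alone, whereas complexes III, IV and V also hold subunits encoded by mitochondrial DNA. The conversion rate of a gene is a share, the converted bases among its sequenced T bases, so it carries no information on abundance. It changes with the loss of labelled RNA and with the amount of unlabelled RNA alike, and no library without 4sU was used here to give the background of mismatches.

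Library medians over the 16241 genes tested lay between 0.25% and 1.19%. Rates were 1.05 log2 higher in the knockdown libraries as a common shift, and the library medians fell over the chase by 0.136 log2 per hour in control and by 0.15 in knockdown. Values called centred below were taken after subtracting each library's own median on the log2 scale. The depth behind each rate is unknown, and the only abundance was a single CPM column of an unnamed library. In that column 9 of 10 monocytic markers reached 1 CPM, with LYZ at 1276 CPM and only MPO below 1, against 1 of 5 lymphoid, 1 of 5 erythroid and 1 of 5 epithelial markers (highest 5.87, 1.32 and 2.88 CPM). ALKBH5 stood at 4.55 CPM, and rates, which carry no abundance, do not test its knockdown. Rates of the members correlated between the 2 libraries of a group with Spearman's rho from 0.689 to 0.931 (45 genes, a description across genes that are not independent replicates). Median abundance was 574 CPM for the members and 9.66 CPM for all genes tested. No member was listed at 0 in any library, against 26.1% of the genes tested.

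Over the chase, the rates of complex III, IV and V mRNAs mostly rose while those of the typical gene fell. In control the median rate over the 45 members climbed from 0.14% at 0 h through 0.171% and 0.207% to 0.231% at 7.5 h. Over all genes tested the median fell from 0.58% to 0.266% across the same times. In knockdown the members went from 0.342% to 0.545% and all genes from 1.22% to 0.552%. The members thus began the chase below the typical gene in both genotypes and came close to it by 7.5 h.

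**Figure D1:**
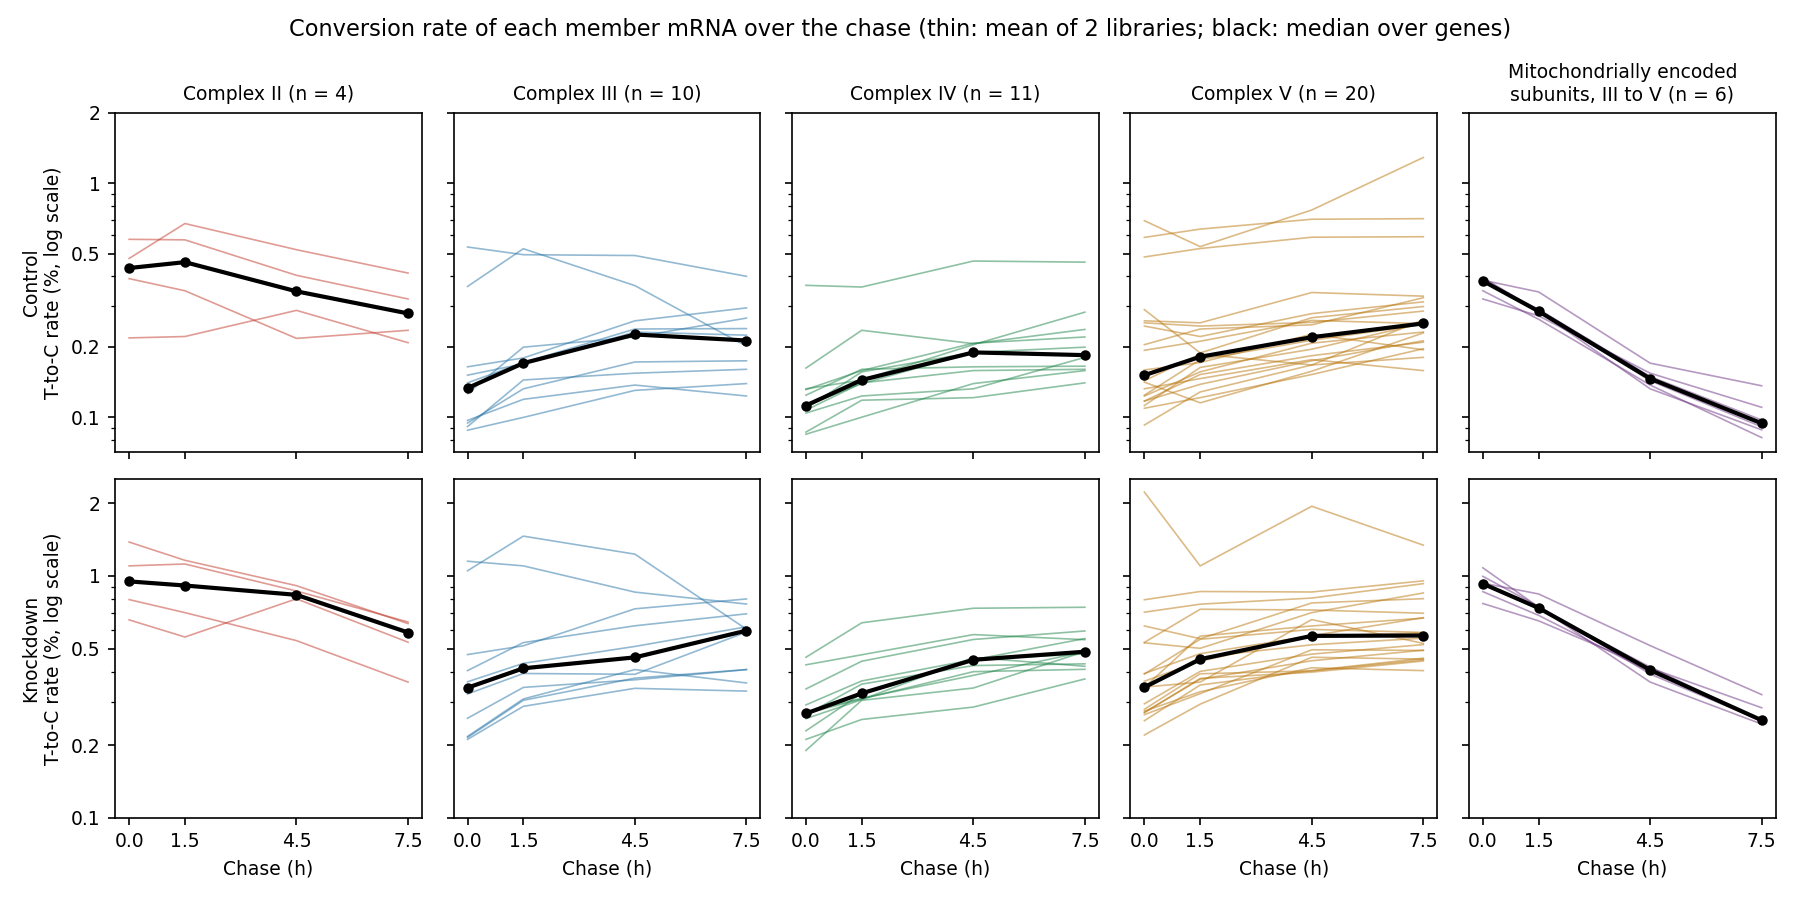
Conversion rate in percent (log axis) against hours of chase, for each mRNA of complexes II to V and for the 6 mitochondrially encoded subunits, in control (upper row) and knockdown (lower row). Thin lines are means of 2 libraries and black lines medians over genes. Medians of complexes III to V are higher at 7.5 h than at 0 h in both genotypes. Those of complex II and the mitochondrially encoded subunits are lower, and not every step between goes the same way.

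The slope of log2 rate on hours was fitted in each genotype over all 16 libraries with limma and adjusted over the 16241 genes. In control 25 of the 45 members rose and 2, SDHC and SDHD, fell, where 3.45% of all genes tested rose and 34.4% fell. In knockdown 33 rose and 4 fell (SDHA, SDHC, SDHD and UQCRC2), against 4.06% and 37.9% of all genes. The median slope over the members was 0.0636 log2 per hour in control and 0.0779 in knockdown, and over all genes −0.109 and −0.129. The same 25 members rose in both genotypes, and SDHC and SDHD fell in both. Without the read-through gene ATP5MF-PTCD1 and the near-copies UQCRHL and ATP5MGL, 23 of 42 members rose in control and 31 in knockdown. After centring, 40 members rose relative to the library medians in control and 39 in knockdown, and none fell. The background after centring was 17.6% higher and 9.46% lower in control, and 17.7% and 8.62% in knockdown. The members that did not pass after centring in control were SDHA, SDHC, SDHD, UQCRFS1 and ATP5MGL, with UQCRC2 as the only further gene in knockdown. ATP5MGL had the lowest abundance of the set, and its slope of 0.112 in control had an SE of 0.0964.

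Single libraries showed the same pattern without a model. Both 7.5 h libraries lay above both 0 h libraries for 32 members in control (11.8% of all genes tested) and for 36 in knockdown (13.2%). Both lay below for 4 members in control (49.8%) and for 6 in knockdown (57.5%). The mean was highest at 7.5 h for 31 members in control and for 28 in knockdown. That count was made for members only, so no share over all genes stands beside it. The rate at 7.5 h as a ratio to that at 0 h had a median of 1.59 in control and 1.62 in knockdown over the members. By complex that median was 1.64 and 1.67 for complex III, 1.65 and 1.65 for complex IV, and 1.6 and 1.6 for complex V, but 0.733 and 0.523 for complex II.

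Promoter windows of 4 members are shown as examples, per RefSeq GRCh38.p14. Each covers the same 300 bases, 250 before to 50 after the start. Whether promoter motifs bear on the rates was not tested. Capitals mark 3 motifs known from promoters of respiratory chain genes, searched on both strands. They are the NRF1 core GCGCANGCG, the ETS core CCGGAAG bound by GABPA and its relatives, and the YY1 core AAGATGGCG. SDHD is the member with the clearest fall, and the other three are rising members of complexes III, IV and V. All 4 windows hold matches, which is not so for every member. COX5A, ATP5IF1, ATP5MC1 and ATP5F1E had steeper control slopes than COX5B and ATP5PF, and their windows held none of the 3 motifs. All are written 5′ to 3′ on the gene's strand.
SDHD, complex II, chr11:112086623-112086922, plus strand: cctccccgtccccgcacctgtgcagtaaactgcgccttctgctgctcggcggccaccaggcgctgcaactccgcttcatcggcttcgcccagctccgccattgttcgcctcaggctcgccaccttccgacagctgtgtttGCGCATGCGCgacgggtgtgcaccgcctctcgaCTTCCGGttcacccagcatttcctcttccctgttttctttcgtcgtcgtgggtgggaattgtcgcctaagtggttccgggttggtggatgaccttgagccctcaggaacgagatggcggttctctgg
UQCRC1, complex III, chr3:48609597-48609896, minus strand: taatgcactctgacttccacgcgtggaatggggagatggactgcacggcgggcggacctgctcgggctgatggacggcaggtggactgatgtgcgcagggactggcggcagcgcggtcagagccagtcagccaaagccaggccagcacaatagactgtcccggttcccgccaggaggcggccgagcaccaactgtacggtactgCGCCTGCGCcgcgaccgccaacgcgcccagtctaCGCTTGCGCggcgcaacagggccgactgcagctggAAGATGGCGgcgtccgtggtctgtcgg
COX5B, complex IV, chr2:97645812-97646111, plus strand: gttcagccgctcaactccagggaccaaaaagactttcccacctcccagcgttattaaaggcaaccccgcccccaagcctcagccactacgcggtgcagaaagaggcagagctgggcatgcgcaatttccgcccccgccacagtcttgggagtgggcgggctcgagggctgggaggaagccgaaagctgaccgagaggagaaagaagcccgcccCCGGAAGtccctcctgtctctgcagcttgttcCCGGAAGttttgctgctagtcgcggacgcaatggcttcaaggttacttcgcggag
ATP5PF, complex V, chr21:25734855-25735154, minus strand: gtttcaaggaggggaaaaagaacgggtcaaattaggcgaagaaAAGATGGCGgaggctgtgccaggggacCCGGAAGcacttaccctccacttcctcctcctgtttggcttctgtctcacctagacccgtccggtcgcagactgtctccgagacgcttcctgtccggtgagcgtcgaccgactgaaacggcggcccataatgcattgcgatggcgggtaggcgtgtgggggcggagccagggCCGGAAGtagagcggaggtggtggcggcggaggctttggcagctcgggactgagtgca
SDHD held 2 NRF1 matches that overlap on opposite strands and an ETS match, UQCRC1 2 NRF1 matches and a YY1 match, COX5B a pair of ETS matches, and the window of ATP5PF shown a pair of ETS matches with a YY1 match. A second RefSeq window of ATP5PF, chr21:25735005-25735304, overlaps it and held an NRF1, an ETS and a YY1 match. Over the set, 34 members matched the RefSeq table, with 40 windows, and 5 members had several windows, which may overlap and count the same letters more than once. The NRF1 letters were in 13 windows (32.5%), against 7.52% of 35116 windows of all RefSeq genes. Those 35116 windows were not filtered by abundance as the members were, so they are not a matched background. The ETS letters were in 17 (42.5%), against 10.3%, and the YY1 letters in 4 (10.0%), against 1.75%. Counted by gene, 13, 16 and 3 of the 34 members held the NRF1, ETS and YY1 letters. Of 12 complex IV windows 1 held the NRF1 letters, 5 the ETS letters and 0 the YY1 letters. For NRF1 the counts were 2 of 3 windows in complex II, 4 of 7 in complex III and 6 of 18 in complex V. A match is a description of letters and not a measured binding site.

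For complex II, no SDH gene rose in either genotype (3.45% of all genes rose in control and 4.06% in knockdown), and 2 of 4 fell in control and 3 of 4 in knockdown (34.4% and 37.9% of all genes). After centring no SDH gene fell and SDHB rose (17.6% of all genes rose and 9.46% fell in control, 17.7% and 8.62% in knockdown). All 4 centred slopes were positive in both genotypes, with medians of 0.0658 and 0.0303, against 0.0265 and 0.0208 over all genes. The median rate of the 4 SDH genes went from 0.434% to 0.278% in control and from 0.951% to 0.584% in knockdown. At 0 h all 4 genes lay above the 0.14% median of the members in both control libraries. In knockdown all 4 genes had both 7.5 h libraries below both 0 h libraries (57.5% of all genes). In control SDHC and SDHD did (49.8% of all genes).

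SDHD, a membrane anchor subunit that helps bind ubiquinone (ENSG00000204370, chromosome 11 from 112086773 to 112120013, plus strand), gave the steadiest fall. In control its rates were 0.508 and 0.644% (0 h), 0.579 and 0.568% (1.5 h), 0.412 and 0.395% (4.5 h), 0.284 and 0.356% (7.5 h). Knockdown rates were 1.42 and 1.33% (0 h), 1.08 and 1.24% (1.5 h), 0.898 and 0.923% (4.5 h), 0.727 and 0.544% (7.5 h). The 4.5 h and 7.5 h libraries lay below all earlier libraries of their genotype. The slope was −0.109 log2 per hour in control (SE 0.0222, limma adjusted p = 0.00109) and −0.139 in knockdown (adjusted p = 0.000128). Centred, the slopes were 0.0261 and 0.0115 and neither passed the test (limma adjusted p = 0.423 and 0.742).

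SDHC, the other membrane anchor (ENSG00000143252, chromosome 1 from 161314257 to 161375340, plus strand), had control rates of 0.394 and 0.388% (0 h), 0.345 and 0.35% (1.5 h), 0.187 and 0.247% (4.5 h), 0.227 and 0.244% (7.5 h). The knockdown libraries gave 0.61 and 0.985% (0 h), 0.76 and 0.651% (1.5 h), 0.483 and 0.596% (4.5 h), 0.434 and 0.294% (7.5 h). The control libraries at the last pair of times were all below those at the first pair. Its control slope was −0.0947 (SE 0.0305, limma adjusted p = 0.0222) and its knockdown slope −0.136 (adjusted p = 0.00202). The control call ended when either control 0 h library was left out, with adjusted p up to 0.0619, while the slope stayed between −0.113 and −0.0866 over the 16 fits that each left out a library.

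SDHA, the flavoprotein that oxidises succinate (ENSG00000073578, chromosome 5 from 218241 to 256700, plus strand), had control rates of 0.564 and 0.391% (0 h), 0.609 and 0.738% (1.5 h), 0.491 and 0.55% (4.5 h), 0.349 and 0.477% (7.5 h). Knockdown libraries gave 1.3 and 0.907% (0 h), 1.32 and 0.925% (1.5 h), 0.882 and 0.85% (4.5 h), 0.785 and 0.505% (7.5 h). The control libraries at 0 h and 7.5 h overlapped, and those of knockdown did not. Its slope was −0.0447 in control (SE 0.036, limma adjusted p = 0.361) and −0.104 in knockdown (adjusted p = 0.0288). The knockdown call ended without 0 h replicate 1, 1.5 h replicate 1 or 7.5 h replicate 2 of knockdown, over a range of −0.129 to −0.0688 (adjusted p up to 0.209).

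SDHB, the iron-sulfur subunit that carries electrons from SDHA to the membrane anchors (ENSG00000117118, chromosome 1 from 17018722 to 17054170, minus strand), had the lowest rate of the 4 genes at 0 h. Its control rates were 0.188 and 0.248% (0 h), 0.18 and 0.262% (1.5 h), 0.313 and 0.259% (4.5 h), 0.192 and 0.224% (7.5 h). Rates in knockdown were 0.584 and 0.731% (0 h), 0.501 and 0.616% (1.5 h), 0.829 and 0.778% (4.5 h), 0.552 and 0.512% (7.5 h). Means were highest at 4.5 h in both genotypes. The slopes of 0.0048 and −0.0127 did not pass the test (limma adjusted p = 0.929 and 0.783), and the sign of each changed when single libraries were left out. Centred, SDHB rose by 0.14 log2 per hour in control and 0.137 in knockdown (limma adjusted p = 0.00712 and 0.00798), the only SDH gene to do so.

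**Figure D2:**
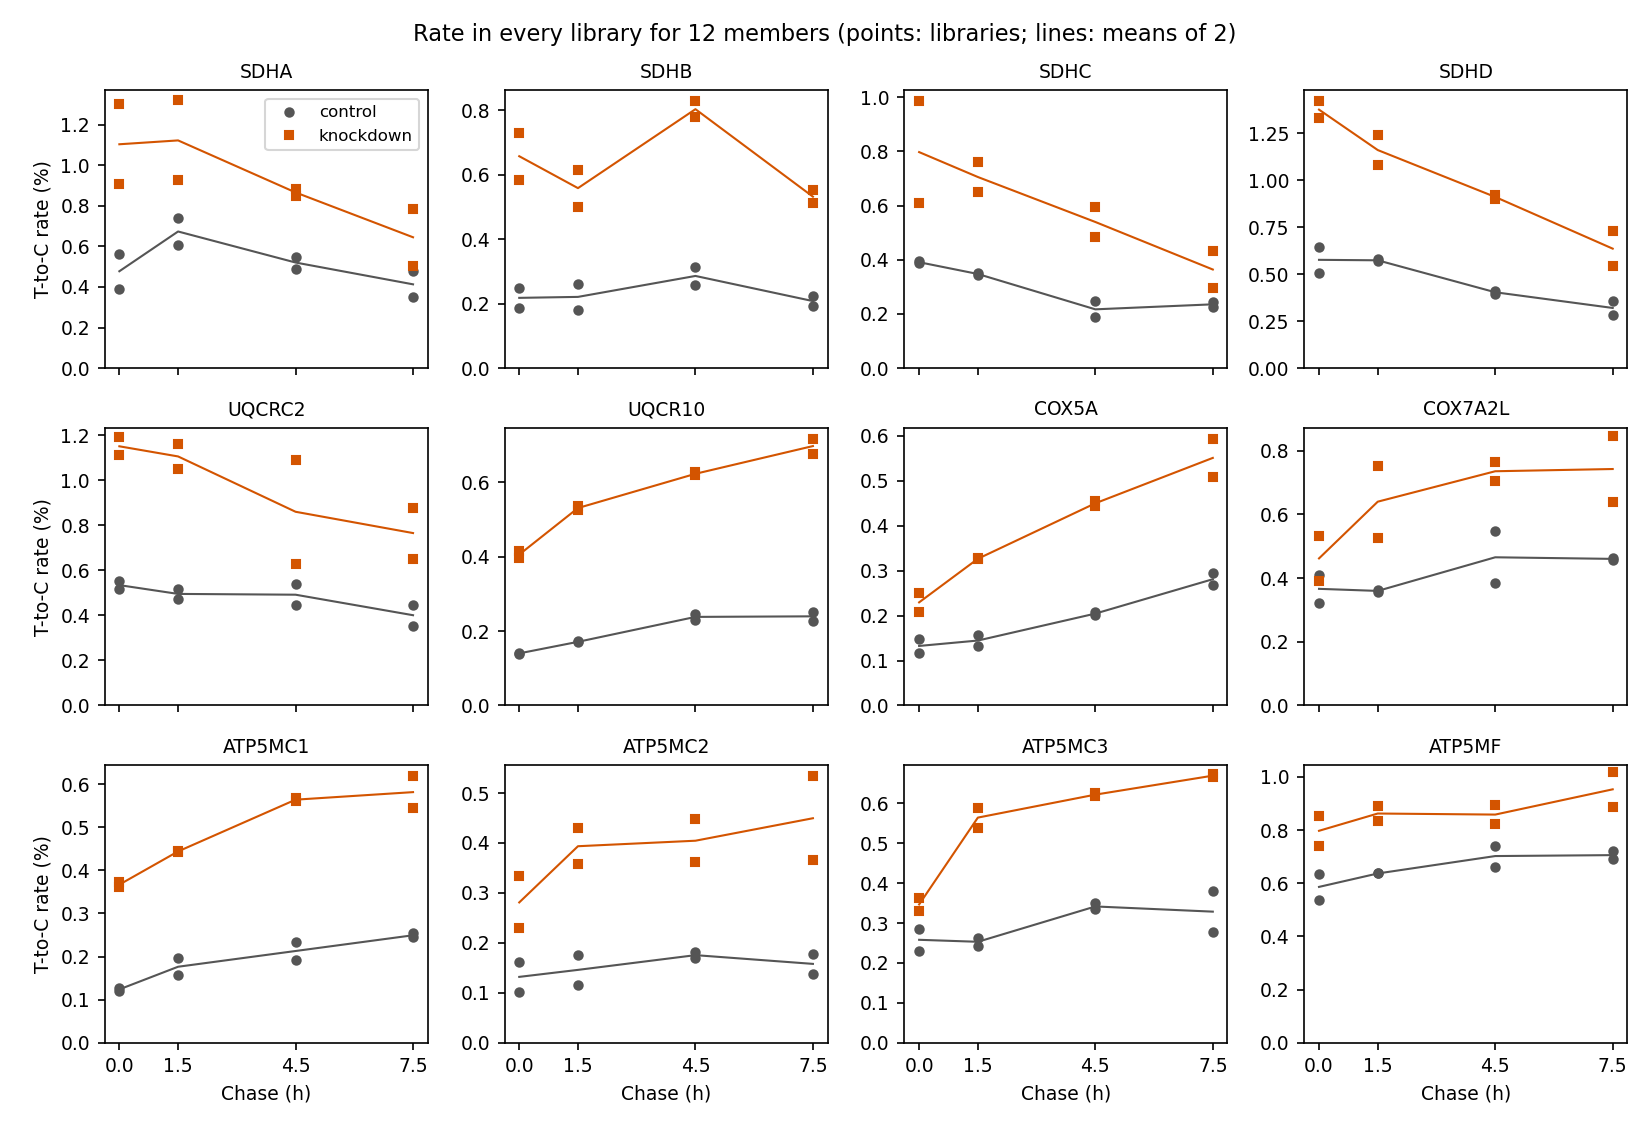
T-to-C rate in percent against hours of chase for 12 members, with a point for every library (control as circles, knockdown as squares) and lines through the means of 2 libraries. Rates of SDHC and SDHD go down in both genotypes, those of COX5A, UQCR10 and ATP5MC1 go up, and no ATP5MF point lies below 0.537%.

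In complex III 7 of 10 members rose in control and none fell, and 8 rose and 1 fell in knockdown. Of all genes tested 3.45% rose and 34.4% fell in control, and 4.06% and 37.9% in knockdown. The median rate went from 0.133% to 0.213% in control. The steepest rises by control slope, among members at or above the median abundance of all genes, were those of UQCRC1, CYC1 and UQCR10, and the lowest slopes those of UQCRFS1, UQCRC2 and UQCRH.

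UQCRC1, a core protein of the matrix side (ENSG00000010256, chromosome 3 from 48599002 to 48610976, minus strand), had control rates of 0.113 and 0.139% (0 h), 0.189 and 0.21% (1.5 h), 0.225 and 0.215% (4.5 h), 0.264 and 0.265% (7.5 h). Those of knockdown were 0.297 and 0.353% (0 h), 0.31 and 0.48% (1.5 h), 0.459 and 0.324% (4.5 h), 0.548 and 0.624% (7.5 h). Every later control library lay above both 0 h libraries. The slopes were 0.0971 in control (SE 0.0279, limma adjusted p = 0.0117) and 0.0899 in knockdown (adjusted p = 0.0161). The control call ended without control 0 h replicate 1 (adjusted p = 0.0599), and the knockdown call without 0 h replicate 1 or either 7.5 h library of knockdown (up to 0.103).

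UQCRC2, the other core protein (ENSG00000140740, chromosome 16 from 21952660 to 21983660, plus strand), went the other way. Its control rates were 0.515 and 0.553% (0 h), 0.519 and 0.471% (1.5 h), 0.446 and 0.537% (4.5 h), 0.447 and 0.354% (7.5 h). Knockdown rates were 1.11 and 1.19% (0 h), 1.05 and 1.16% (1.5 h), 1.09 and 0.629% (4.5 h), 0.652 and 0.878% (7.5 h). In both genotypes the 7.5 h libraries lay below the 0 h libraries. The slope was −0.0456 in control (SE 0.0282, limma adjusted p = 0.223) and −0.0831 in knockdown (adjusted p = 0.0259). The knockdown call ended without 0 h replicate 2 or 7.5 h replicate 1 of knockdown (adjusted p up to 0.139).

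UQCRFS1, the Rieske iron-sulfur protein that takes electrons from ubiquinol (ENSG00000169021, chromosome 19 from 29205321 to 29213541, minus strand), was among the least abundant members at 11.4 CPM. Its control rates were 0.366 and 0.358% (0 h), 0.582 and 0.468% (1.5 h), 0.38 and 0.351% (4.5 h), 0.286 and 0.116% (7.5 h). The knockdown libraries gave 1.19 and 0.906% (0 h), 1.57 and 1.36% (1.5 h), 1.31 and 1.14% (4.5 h), 0.802 and 0.402% (7.5 h). The 1.5 h libraries were the highest and the 7.5 h libraries the lowest in both genotypes. Its slopes of −0.126 and −0.12 (SE 0.0574) did not pass the test (limma adjusted p = 0.0966 and 0.107).

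CYC1, cytochrome c1, which hands electrons to cytochrome c (ENSG00000179091, chromosome 8 from 144095027 to 144097525, plus strand), had control rates of 0.174 and 0.155% (0 h), 0.179 and 0.179% (1.5 h), 0.281 and 0.235% (4.5 h), 0.278 and 0.308% (7.5 h). Knockdown libraries gave 0.585 and 0.36% (0 h), 0.543 and 0.485% (1.5 h), 0.842 and 0.619% (4.5 h), 0.855 and 0.751% (7.5 h). In each genotype the 4.5 h and 7.5 h libraries lay above the earlier ones. The slopes were 0.0965 (SE 0.0241, limma adjusted p = 0.00493) and 0.104 (adjusted p = 0.00257).

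UQCR10, a small accessory subunit (ENSG00000184076, chromosome 22 from 29767369 to 29770413, plus strand), had closely agreeing replicates. In control they gave 0.141 and 0.139% (0 h), 0.172 and 0.17% (1.5 h), 0.247 and 0.229% (4.5 h), 0.251 and 0.228% (7.5 h). In knockdown they gave 0.395 and 0.416% (0 h), 0.526 and 0.535% (1.5 h), 0.619 and 0.626% (4.5 h), 0.677 and 0.717% (7.5 h). Each step up to 4.5 h in control, and up to 7.5 h in knockdown, separated the libraries without overlap. The slopes were 0.0833 (SE 0.0153, limma adjusted p = 5e-04) and 0.088 (adjusted p = 0.000259).

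UQCRH, the acidic hinge protein that sits beside cytochrome c1, and UQCRHL, a gene of nearly the same sequence, are shown because reads of the pair are hard to tell apart. In GENCODE 29 their coding sequences of 273 bases differ at 4 positions (98.5% identical), which are in capitals.
UQCRH coding sequence: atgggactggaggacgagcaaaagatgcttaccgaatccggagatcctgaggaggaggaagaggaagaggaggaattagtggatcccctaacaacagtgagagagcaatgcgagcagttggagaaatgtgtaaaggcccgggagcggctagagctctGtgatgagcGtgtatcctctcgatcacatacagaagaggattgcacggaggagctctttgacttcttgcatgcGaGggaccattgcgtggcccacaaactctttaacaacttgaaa
UQCRHL coding sequence: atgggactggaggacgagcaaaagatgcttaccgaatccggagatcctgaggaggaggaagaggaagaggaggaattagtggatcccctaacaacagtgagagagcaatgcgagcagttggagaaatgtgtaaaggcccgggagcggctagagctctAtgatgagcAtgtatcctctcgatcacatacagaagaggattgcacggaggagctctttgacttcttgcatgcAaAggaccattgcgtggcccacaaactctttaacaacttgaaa
How reads that match both were assigned is not given in the sources used here, so their rates are uncertain as separate values. UQCRH (ENSG00000173660, chromosome 1 from 46303631 to 46316776, plus strand) had control rates of 0.0933 and 0.1% (0 h), 0.104 and 0.134% (1.5 h), 0.12 and 0.154% (4.5 h), 0.116 and 0.13% (7.5 h). Rates in knockdown were 0.23 and 0.199% (0 h), 0.313 and 0.299% (1.5 h), 0.418 and 0.338% (4.5 h), 0.432 and 0.388% (7.5 h). These were among the lowest rates of the set. Its slope was 0.0296 in control (SE 0.0199, limma adjusted p = 0.266) and 0.0984 in knockdown (adjusted p = 0.00091). UQCRHL had control means of 0.0878% ± 0.000661 at 0 h and 0.139% ± 0.014 at 7.5 h (SD, n = 2), and its slope of 0.0626 passed the test in control (limma adjusted p = 0.04). The remaining members of complex III, UQCRB, UQCRQ and UQCR11, rose in both genotypes, with control slopes of 0.0667, 0.0826 and 0.0636.

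In complex IV 7 of 11 members rose in control and 10 in knockdown, and none fell in either. The shares of all genes tested were 3.45% and 4.06% rising, and 34.4% and 37.9% falling. The median rate went from 0.112% to 0.184% in control and from 0.27% to 0.486% in knockdown. Without a model, 10 of 11 members in control and 11 of 11 in knockdown had both 7.5 h libraries above both 0 h libraries. Over all genes tested 11.8% and 13.2% did. COX5A, a subunit on the matrix side, had the steepest slope of all 45 members in both genotypes.

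COX5A (ENSG00000178741, chromosome 15 from 74919791 to 74938168, minus strand) had control rates of 0.148 and 0.117% (0 h), 0.132 and 0.157% (1.5 h), 0.207 and 0.202% (4.5 h), 0.268 and 0.294% (7.5 h). Those of knockdown were 0.25 and 0.209% (0 h), 0.325 and 0.328% (1.5 h), 0.445 and 0.455% (4.5 h), 0.594 and 0.508% (7.5 h). The mean at 7.5 h was 2.12 times that at 0 h in control and 2.4 times in knockdown. The 4.5 h libraries lay above those at 1.5 h, and the 7.5 h libraries above those at 4.5 h, in both genotypes, while in control the 0 h and 1.5 h libraries overlapped. The slopes were 0.119 (SE 0.0167, limma adjusted p = 5.02e-05) and 0.142 (adjusted p = 7.66e-06).

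COX5B, a zinc-binding subunit on the matrix side (ENSG00000135940, chromosome 2 from 97646040 to 97648383, plus strand), had control rates of 0.0985 and 0.0703% (0 h), 0.105 and 0.0949% (1.5 h), 0.134 and 0.144% (4.5 h), 0.162 and 0.154% (7.5 h). Knockdown rates were 0.3 and 0.248% (0 h), 0.291 and 0.333% (1.5 h), 0.423 and 0.353% (4.5 h), 0.452 and 0.52% (7.5 h). Its control mean at 0 h, 0.0844% ± 0.02 (SD, n = 2), was the lowest of the 45 members. The slopes were 0.0871 (SE 0.0155, limma adjusted p = 0.00039) and 0.0959 (adjusted p = 0.000142).

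COX4I1, the usual isoform of subunit 4 (ENSG00000131143, chromosome 16 from 85798633 to 85807044, plus strand), had control rates of 0.122 and 0.0972% (0 h), 0.131 and 0.181% (1.5 h), 0.199 and 0.18% (4.5 h), 0.231 and 0.167% (7.5 h). The knockdown libraries gave 0.186 and 0.194% (0 h), 0.279 and 0.334% (1.5 h), 0.378 and 0.31% (4.5 h), 0.468 and 0.506% (7.5 h). All later libraries lay above the 0 h libraries of their genotype. The slopes were 0.0782 (SE 0.0227, limma adjusted p = 0.0123) and 0.136 (adjusted p = 0.000175). The control call ended without control 0 h replicate 2 or 7.5 h replicate 1 (adjusted p up to 0.0701).

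The lowest control slopes of complex IV were 0.031 for COX8A, 0.0413 for COX6A1 and 0.0479 for COX6B1, and none of these 3 passed in control. COX8A, a small membrane-spanning subunit (ENSG00000176340), had control rates of 0.105 and 0.143% (0 h), 0.157 and 0.163% (1.5 h), 0.168 and 0.161% (4.5 h), 0.128 and 0.202% (7.5 h). Knockdown libraries gave 0.266 and 0.248% (0 h), 0.319 and 0.298% (1.5 h), 0.45 and 0.471% (4.5 h), 0.414 and 0.432% (7.5 h). The control libraries at 7.5 h spanned those at all other times except the lower one at 0 h, whereas in knockdown the later times lay above 0 h.
COX6A1 (ENSG00000111775) had control rates of 0.15 and 0.174% (0 h), 0.301 and 0.169% (1.5 h), 0.172 and 0.239% (4.5 h), 0.241 and 0.233% (7.5 h), and knockdown rates of 0.432 and 0.426% (0 h), 0.441 and 0.503% (1.5 h), 0.55 and 0.593% (4.5 h), 0.541 and 0.548% (7.5 h). COX6B1, a subunit on the side facing cytochrome c (ENSG00000126267), had control rates of 0.105 and 0.108% (0 h), 0.124 and 0.157% (1.5 h), 0.156 and 0.161% (4.5 h), 0.121 and 0.199% (7.5 h), and knockdown rates of 0.288 and 0.252% (0 h), 0.323 and 0.297% (1.5 h), 0.433 and 0.371% (4.5 h), 0.416 and 0.407% (7.5 h). The 7.5 h control libraries of COX6B1 lay far apart, and its control slope passed the test when the lower of them, or 1.5 h replicate 2, was left out. That of COX6A1 passed without control 1.5 h replicate 1. In knockdown COX8A and COX6B1 rose by 0.0899 and 0.073 log2 per hour (limma adjusted p = 0.00708 and 0.00815). COX6A1 stood at 0.0447 in knockdown (adjusted p = 0.173), the only complex IV gene that did not pass there.

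In complex V 11 of 20 members rose in control and 15 in knockdown, and none fell in either. The 11 include the read-through gene ATP5MF-PTCD1 (limma adjusted p = 0.0397), while ATP5MF, which it overlaps, did not pass in control (adjusted p = 0.0561). Among all genes tested 3.45% and 4.06% rose, and 34.4% and 37.9% fell. The median rate went from 0.151% to 0.252% in control and from 0.347% to 0.567% in knockdown. Among members at or above the median abundance of all genes, the lowest control slopes were those of ATP5F1A, ATP5F1B and ATP5MC2, and the highest those of ATP5IF1, ATP5MC1 and ATP5F1E. ATP5F1A and ATP5F1B encode the alpha and beta subunits of the head.

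ATP5F1A (ENSG00000152234, chromosome 18 from 46080248 to 46104334, minus strand) had control rates of 0.286 and 0.219% (0 h), 0.23 and 0.259% (1.5 h), 0.293 and 0.215% (4.5 h), 0.285 and 0.284% (7.5 h). Rates in knockdown were 0.605 and 0.452% (0 h), 0.498 and 0.505% (1.5 h), 0.745 and 0.664% (4.5 h), 0.948 and 0.753% (7.5 h). The control times overlapped, and the 4.5 h and 7.5 h knockdown libraries lay above the earlier ones. The slope was 0.0209 in control (SE 0.022, limma adjusted p = 0.497) and 0.0963 in knockdown (adjusted p = 0.00225).
ATP5F1B (ENSG00000110955, chromosome 12 from 56638175 to 56646068, minus strand) had control rates of 0.316 and 0.259% (0 h), 0.203 and 0.173% (1.5 h), 0.222 and 0.31% (4.5 h), 0.318 and 0.276% (7.5 h). Those of knockdown were 0.458 and 0.604% (0 h), 0.806 and 0.649% (1.5 h), 0.844 and 0.603% (4.5 h), 0.825 and 0.577% (7.5 h). Libraries at 0 h and 7.5 h overlapped in both genotypes, and neither slope passed (0.0302 and 0.0348, limma adjusted p = 0.506 and 0.417). Of the other parts of the head and central stalk, ATP5F1C, the gamma subunit, had slopes of 0.042 and 0.0882 (limma adjusted p = 0.104 and 0.00185), and ATP5F1D, the delta subunit, 0.0327 and 0.0869 (adjusted p = 0.65 and 0.174).

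ATP5F1E, the epsilon subunit of the central stalk (ENSG00000124172, chromosome 20 from 59025467 to 59032382, minus strand), had control rates of 0.105 and 0.142% (0 h), 0.153 and 0.158% (1.5 h), 0.191 and 0.224% (4.5 h), 0.214 and 0.247% (7.5 h). Knockdown rates were 0.287 and 0.266% (0 h), 0.347 and 0.318% (1.5 h), 0.386 and 0.448% (4.5 h), 0.415 and 0.397% (7.5 h). In both genotypes the 0 h libraries were the lowest and the 1.5 h libraries next. The slopes were 0.0923 (SE 0.0173, limma adjusted p = 0.000583) and 0.0647 (adjusted p = 0.00671).

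ATP5IF1 encodes the inhibitor that blocks ATP hydrolysis by the enzyme (ENSG00000130770, chromosome 1 from 28236109 to 28246906, plus strand). Its control rates were 0.135 and 0.0891% (0 h), 0.157 and 0.169% (1.5 h), 0.2 and 0.19% (4.5 h), 0.23 and 0.275% (7.5 h). The knockdown libraries gave 0.227 and 0.213% (0 h), 0.283 and 0.307% (1.5 h), 0.47 and 0.451% (4.5 h), 0.446 and 0.46% (7.5 h). Each time in control lay above the one before without overlap, and in knockdown the last pair of times overlapped. The slopes were 0.111 (SE 0.0212, limma adjusted p = 0.000694) and 0.123 (adjusted p = 0.000242).

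Subunit c of the proton-turning ring is encoded by ATP5MC1, ATP5MC2 and ATP5MC3, which differ in their leader peptides and make the same mature protein. The last 225 coding bases of each (GENCODE 29) are shown because they carry this shared part, with capitals at the positions where the 3 genes do not all agree.
ATP5MC1: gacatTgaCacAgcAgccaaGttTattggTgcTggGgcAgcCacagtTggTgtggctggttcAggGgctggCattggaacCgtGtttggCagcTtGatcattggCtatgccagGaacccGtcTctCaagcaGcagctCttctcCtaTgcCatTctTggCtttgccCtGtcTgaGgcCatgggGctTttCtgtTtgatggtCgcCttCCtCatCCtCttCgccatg
ATP5MC2: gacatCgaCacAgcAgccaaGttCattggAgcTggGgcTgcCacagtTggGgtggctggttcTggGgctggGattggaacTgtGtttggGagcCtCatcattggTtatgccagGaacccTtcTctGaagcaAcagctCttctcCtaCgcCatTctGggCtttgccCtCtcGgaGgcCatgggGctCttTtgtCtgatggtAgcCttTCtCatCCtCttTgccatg
ATP5MC3: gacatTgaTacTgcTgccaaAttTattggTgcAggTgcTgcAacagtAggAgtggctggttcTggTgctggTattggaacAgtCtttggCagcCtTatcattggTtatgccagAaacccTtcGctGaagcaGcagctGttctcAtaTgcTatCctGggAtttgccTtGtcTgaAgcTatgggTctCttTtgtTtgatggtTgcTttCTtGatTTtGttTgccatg
All 3 agreed at 173 bases (76.9%). ATP5MC1 and ATP5MC2 were 88.9% identical, and ATP5MC3 was 81.3% identical to each of them.
ATP5MC1 (ENSG00000159199) had control rates of 0.127 and 0.121% (0 h), 0.157 and 0.196% (1.5 h), 0.234 and 0.192% (4.5 h), 0.245 and 0.254% (7.5 h), and knockdown rates of 0.373 and 0.361% (0 h), 0.446 and 0.442% (1.5 h), 0.567 and 0.561% (4.5 h), 0.544 and 0.619% (7.5 h). ATP5MC2 (ENSG00000135390) had control rates of 0.102 and 0.162% (0 h), 0.116 and 0.176% (1.5 h), 0.17 and 0.181% (4.5 h), 0.178 and 0.138% (7.5 h), and knockdown rates of 0.333 and 0.229% (0 h), 0.429 and 0.358% (1.5 h), 0.362 and 0.447% (4.5 h), 0.365 and 0.534% (7.5 h). ATP5MC3 (ENSG00000154518) had control rates of 0.286 and 0.23% (0 h), 0.263 and 0.243% (1.5 h), 0.349 and 0.334% (4.5 h), 0.277 and 0.38% (7.5 h), and knockdown rates of 0.362 and 0.331% (0 h), 0.539 and 0.589% (1.5 h), 0.625 and 0.618% (4.5 h), 0.665 and 0.673% (7.5 h). At 0 h ATP5MC3 lay above the other two in control, and in that genotype the 7.5 h libraries of ATP5MC1 lay above both 0 h libraries while those of ATP5MC2 overlapped them.
Only ATP5MC1 rose in control (0.0961 log2 per hour, SE 0.0164, limma adjusted p = 0.000272), with 0.0305 for ATP5MC2 (adjusted p = 0.437) and 0.0492 for ATP5MC3 (adjusted p = 0.119). In knockdown ATP5MC1 and ATP5MC3 rose (0.0792 and 0.0971, limma adjusted p = 0.0011 and 0.00391), and ATP5MC2 had a slope of 0.0648 (adjusted p = 0.0793). The differences between the slopes of the 3 genes were not tested. The ATP5MC3 control slope passed without control 7.5 h replicate 1, and the ATP5MC2 knockdown slope passed without the first replicate of knockdown at 1.5 h or at 7.5 h.

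Of the peripheral stalk, which holds the head still, ATP5PO, ATP5PD, ATP5PF and ATP5PB rose in both genotypes, with control slopes of 0.0857, 0.0839, 0.079 and 0.0681. ATP5PF (ENSG00000154723, 3453 CPM) had control means of 0.117% ± 0.00507 at 0 h and 0.209% ± 0.0219 at 7.5 h (SD, n = 2). In knockdown its means were 0.296% ± 0.0085 and 0.52% ± 0.0152, and the libraries of the compared times did not overlap in either genotype. Of the small membrane subunits, ATP5MG, ATP5ME and ATP5MD rose in both genotypes, with control slopes of 0.0882, 0.0834 and 0.0742. ATP5MPL had slopes of 0.0593 in knockdown (limma adjusted p = 0.0311) and 0.0373 in control (adjusted p = 0.177).

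The slopes of the 2 genotypes were close to each other for most members. Over the 45 genes they correlated with Pearson's r of 0.847 and Spearman's rho of 0.538, given as a description without a test, since members share libraries. The slope difference, knockdown minus control, passed the limma test for 0 members and for 0 of 16241 genes, centred or not. At an unadjusted p under 0.05, ATP5F1A (0.0755) and UQCRH (0.0688) were the only 2 members, against 7.81% of all genes, and COX4I1 joined them after centring, against 7.79%. The smallest adjusted p among members was 0.578, and 0.506 after centring. The median SE of the slope difference was 0.0301 log2 per hour over the members, and differences as large as the 0.0755 of ATP5F1A did not pass after adjustment.

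**Figure D3:**
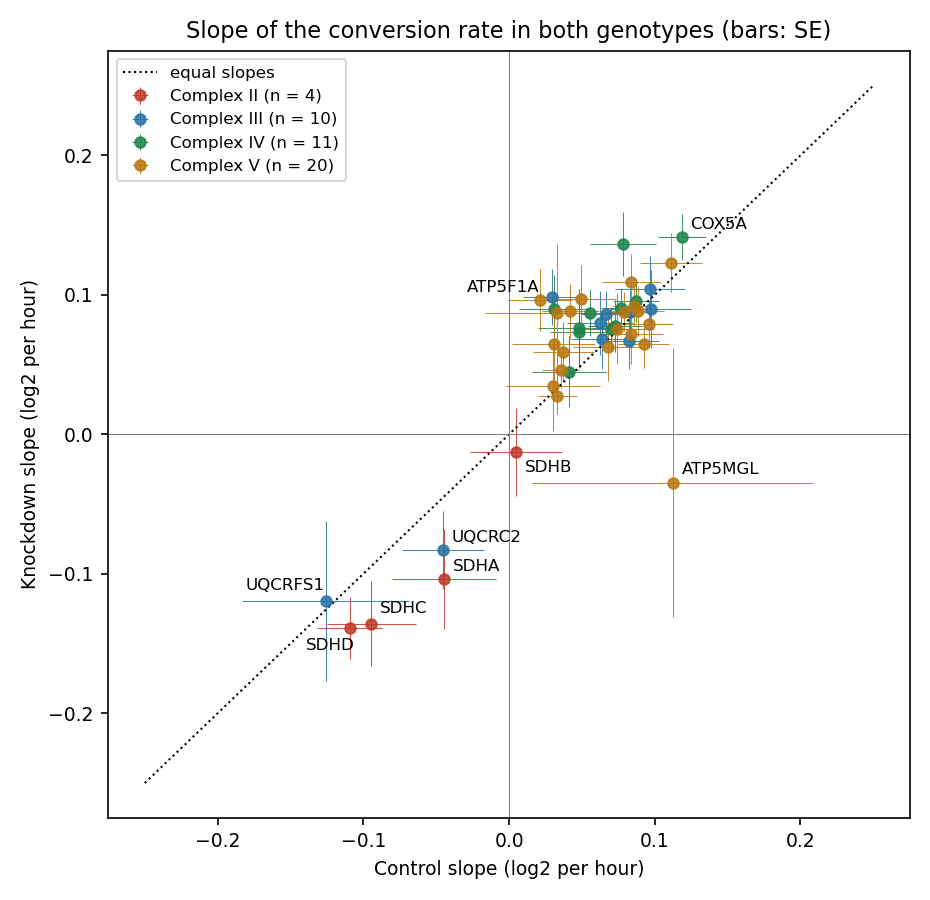
Knockdown slope against control slope of the conversion rate (log2 per hour) for the 45 mRNAs, coloured by complex, with SE bars and a dotted line of equal slopes. Most members of complexes III to V lie above 0 on both axes, while SDHA, SDHC, SDHD, UQCRC2 and UQCRFS1 lie below 0 on both.

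Rates of the set were higher in knockdown than in control throughout. Averaged over the 4 times, 45 of 45 members were higher by the limma test, where 69.6% of all genes tested were. The median effect was 1.08 log2 over the members and 1.02 over all genes, and the members ranged from 0.375 for ATP5MF to 1.45 for UQCRFS1. Both knockdown libraries lay above both control libraries for 44, 43, 45 and 43 members at the 4 successive times, against 71.1%, 74.3%, 68.2% and 58.9% of all genes. They did so at all 4 times for 42 members (40.5% of all genes). The median ratio of knockdown to control means was 2.39, 2.32, 2.52 and 2.41 at the 4 times over the members, and 2.09, 2.21, 2.18 and 1.97 over genes with a control mean above 0. By the fit of group means, 41 members were higher at 0 h (35.6% of all genes) and 40 at 7.5 h (33.5%). The median SE of the averaged effect was 0.0792 over the members and 0.263 over all genes.

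Most of this difference lay in the common shift of 1.05 log2. After centring, 2 of 45 members were higher in knockdown (1.45% of all genes) and 4 were lower (4.59%). Those higher were UQCR10 and COX7A2, and those lower ATP5MF, the read-through gene ATP5MF-PTCD1, COX7A2L and ATP5F1E. By single times after centring, 0 members were higher and 2 lower at 0 h (background 0.0493% and 0.499%), at 1.5 h (0.0369% and 0.474%) and at 4.5 h (0.0862% and 0.64%), in each case ATP5MF and ATP5MF-PTCD1. For 7.5 h, UQCR10 was higher and ATP5MF lower (0.4% and 0.702%). At 7.5 h the higher call was lost in 9 of the 16 fits that each left out a library (control 7.5 h replicate 2 and every knockdown library), and the lower call in 3 (either control 7.5 h library and knockdown 7.5 h replicate 1). At 0 h no member was called without control 0 h replicate 2 or knockdown 0 h replicate 2, and 1 was without control 0 h replicate 1. Without the variance trend 0 members passed at either of these times.

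ATP5MF encodes subunit f of the membrane part of ATP synthase (ENSG00000241468, chromosome 7 from 99448475 to 99466331, minus strand). Its control rates were 0.537 and 0.636% (0 h), 0.637 and 0.637% (1.5 h), 0.663 and 0.742% (4.5 h), 0.691 and 0.721% (7.5 h). Knockdown libraries gave 0.854 and 0.741% (0 h), 0.891 and 0.834% (1.5 h), 0.823 and 0.894% (4.5 h), 0.887 and 1.02% (7.5 h). Its control rates were several times the median of the set, and knockdown exceeded control by ratios of only 1.36, 1.35, 1.22 and 1.35 at the 4 times. The centred effect was −0.674 log2 (SE 0.0507, limma adjusted p = 7.9e-07), and it was −0.629, −0.711, −0.813 and −0.543 at the 4 times (adjusted p = 0.00838, 0.00302, 0.00149 and 0.0228). ATP5MF-PTCD1 (ENSG00000248919, from 99419749 to 99466197 on the same strand) overlaps it, so the values of the pair are not independent. It had control rates of 0.449 and 0.518% (0 h), 0.54 and 0.512% (1.5 h), 0.567 and 0.608% (4.5 h), 0.562 and 0.62% (7.5 h), and knockdown rates of 0.757 and 0.66% (0 h), 0.783 and 0.746% (1.5 h), 0.796 and 0.824% (4.5 h), 0.895 and 0.963% (7.5 h). Its centred effect was −0.536 (SE 0.0535, limma adjusted p = 1.54e-05). Both calls held in all 16 fits that left out a library.

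COX7A2L, a relative of COX7A2 known for its place in respiratory supercomplexes (ENSG00000115944, chromosome 2 from 42333546 to 42425088, minus strand), had control rates of 0.322 and 0.41% (0 h), 0.362 and 0.357% (1.5 h), 0.547 and 0.383% (4.5 h), 0.456 and 0.464% (7.5 h). Rates in knockdown were 0.532 and 0.391% (0 h), 0.753 and 0.526% (1.5 h), 0.765 and 0.705% (4.5 h), 0.639 and 0.845% (7.5 h). The genotypes overlapped at 0 h alone. Its centred effect was −0.481 (SE 0.112, limma adjusted p = 0.0182) and held in all 16 fits that left out a library. ATP5F1E, with the rates given above, had −0.205 (SE 0.052, limma adjusted p = 0.0298), and that call ended in 8 of the 16 fits (adjusted p up to 0.0648).

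UQCR10 had the larger centred rise, 0.263 log2 (SE 0.0474, limma adjusted p = 0.0035), and it held in all 16 fits that left out a library. Knockdown exceeded control by ratios of 2.9, 3.11, 2.61 and 2.92 at the 4 times. COX7A2, a small membrane subunit of complex IV and the most abundant member at 3612 CPM (ENSG00000112695, chromosome 6 from 75237675 to 75250323, minus strand), had control rates of 0.127 and 0.136% (0 h), 0.164 and 0.153% (1.5 h), 0.213 and 0.201% (4.5 h), 0.228 and 0.212% (7.5 h). Those of knockdown were 0.331 and 0.35% (0 h), 0.456 and 0.431% (1.5 h), 0.57 and 0.522% (4.5 h), 0.573 and 0.612% (7.5 h). Its centred effect of 0.154 (SE 0.0415, limma adjusted p = 0.041) lost its call in 11 of the 16 fits (adjusted p up to 0.0804). Both rises depended on the scale. With a pseudocount of 0.2 percentage points UQCR10 stood at 0.0967 and did not pass, and COX7A2 turned to −0.00607. Without the variance trend neither rise passed (limma adjusted p = 0.0899 and 0.331), nor did the lower value of ATP5F1E (adjusted p = 0.204).

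**Figure D4:**
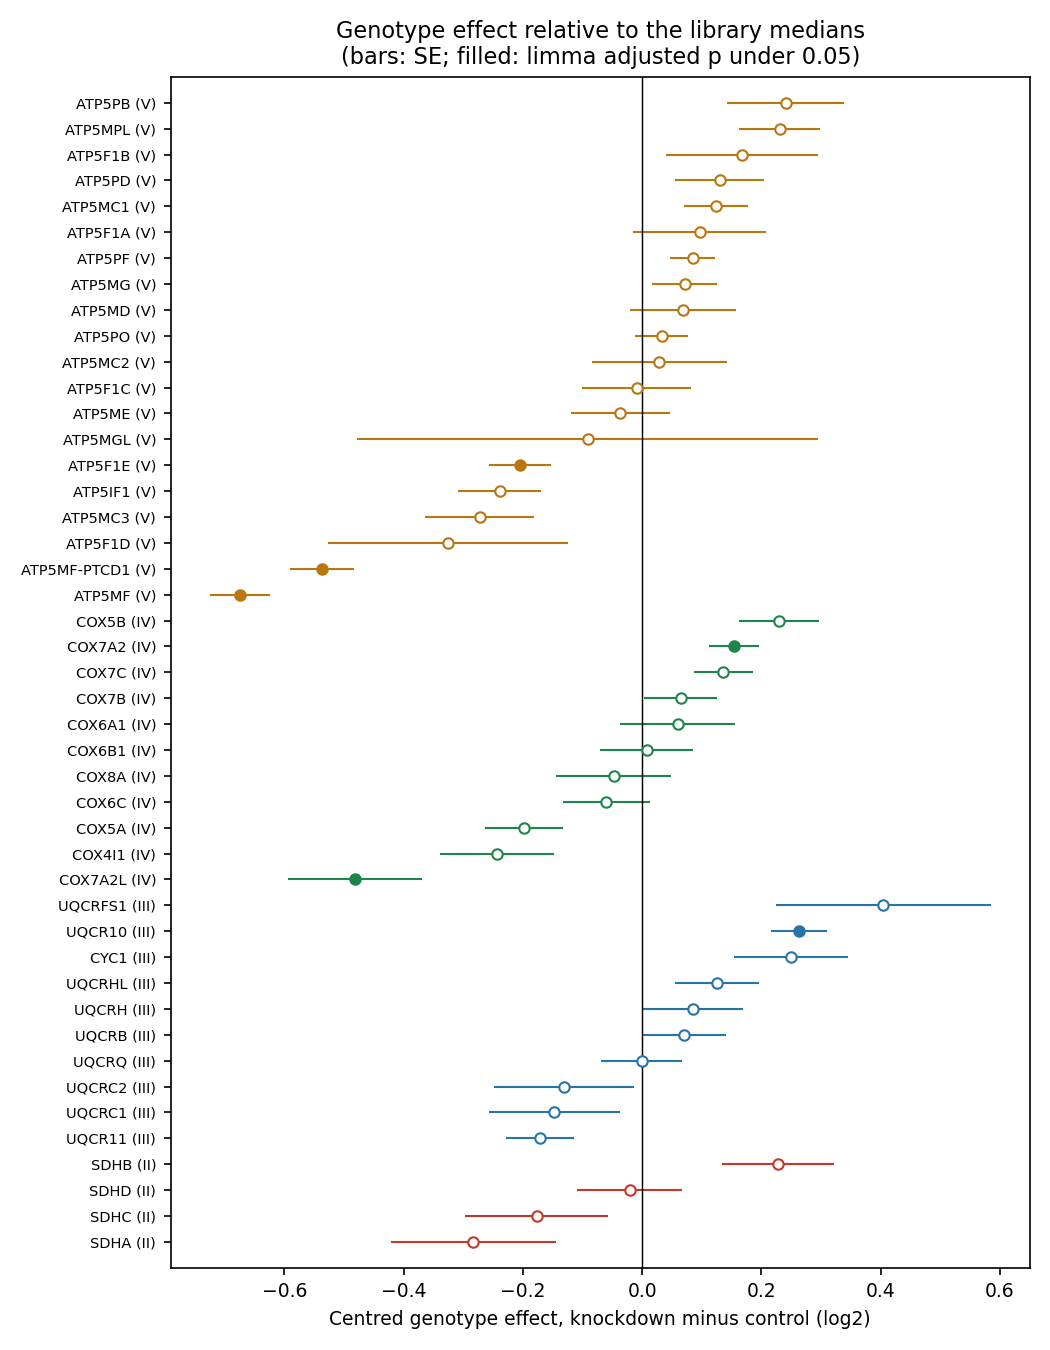
Genotype effect of each of the 45 mRNAs relative to the library medians (knockdown minus control, log2), with SE bars, ordered by complex. Filled points passed the limma test at 0.05: UQCR10 and COX7A2 on the positive side, ATP5MF, ATP5MF-PTCD1, COX7A2L and ATP5F1E on the negative side.

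The 6 mitochondrially encoded subunits of the same complexes, MT-CYB of complex III, MT-CO1 to MT-CO3 of complex IV and MT-ATP6 and MT-ATP8 of complex V, fell in both genotypes without exception. Of all genes tested 34.4% fell in control and 37.9% in knockdown. The median slope of the 6 was −0.214 log2 per hour in control and −0.221 in knockdown, below the −0.109 and −0.129 of all genes. The median rate went from 0.382% to 0.0939% in control and from 0.929% to 0.253% in knockdown. MT-CO2, a core subunit of complex IV, had control rates of 0.389 and 0.378% (0 h), 0.279 and 0.288% (1.5 h), 0.142 and 0.143% (4.5 h), 0.0996 and 0.0819% (7.5 h). Every step separated the libraries, and its slope was −0.22 (SE 0.0136, limma adjusted p = 9.82e-08). The difference between the nuclear and the mitochondrial sets was not tested. After centring 5 of the 6 fell and 1 did not pass in each genotype (9.46% of all genes fell in control and 8.62% in knockdown). For the genotype effect all 6 were higher (median 1.2), as were 69.6% of all genes. After centring 1 was higher, MT-CO2 at 0.159 (limma adjusted p = 0.0295), against 1.45% of all genes.

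Other genes of the pathway were read from lists that, like the members, were chosen with earlier results of these data known. Among nuclear-encoded complex I subunits 21 of 37 rose and none fell in control (3.45% and 34.4% of all genes, median 0.069 log2 per hour), and 24 rose and 1 fell in knockdown (4.06% and 37.9%). The gene that fell was NDUFS1, the largest iron-sulfur subunit (−0.134, limma adjusted p = 0.0455). NDUFS7 and NDUFS8, iron-sulfur subunits near the ubiquinone site, rose by 0.183 and 0.14 log2 per hour in control (limma adjusted p = 0.000578 and 0.000933). CYCS, cytochrome c itself, had slopes of 0.0185 and 0.036, neither past the test (limma adjusted p = 0.616 and 0.278).

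Of the assembly factors of complexes II to V, 3 of 32 tested rose and 10 fell in control (3.45% and 34.4% of all genes, median −0.0288), and 2 rose and 13 fell in knockdown (4.06% and 37.9%). The share that fell was thus near that of all genes. UQCC2, needed for cytochrome b synthesis, rose by 0.128 and 0.178 log2 per hour (limma adjusted p = 0.00022 and 9.03e-06), and PET100, an assembly factor of complex IV, by 0.129 and 0.112 (adjusted p = 0.00383 and 0.00848). SCO2, a copper chaperone of complex IV, fell by 0.127 and 0.19 (limma adjusted p = 0.0141 and 0.000773). Of 12 nuclear regulators 10 fell in control and 9 in knockdown (34.4% and 37.9% of all genes), and none rose (median −0.199 in control). They include NRF1, a transcription factor of respiratory chain genes, which fell by 0.229 and 0.288, and ESRRA, a nuclear receptor of the same programme, which fell by 0.197 and 0.151 (limma adjusted p = 0.000626, 7.3e-05, 0.000516 and 0.00328). GABPA had slopes of −0.075 and −0.0462, neither past the test. Among 14 citric acid cycle genes outside complex II, 1 rose and 2 fell in control (IDH2 at 0.0881; CS at −0.229 and SUCLG2 at −0.196), and 1 rose and 6 fell in knockdown. Of all genes 3.45% rose and 34.4% fell in control, and 4.06% and 37.9% in knockdown.

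The transcripts of the set were short. By the GENCODE 29 transcripts, the median length of the 45 members was 1153 bases, against 3066 over 12345 tested genes with a coding transcript, and the median coding length 345 against 1413. Under 1000 bases lay 42.2% of members and 6.07% of those genes. T made up a median of 26.1% of bases in the members and 24.9% in those genes. The letters GGACT, the commonest form of the m6A consensus, occurred at a median of 1.25 per 1000 bases in the members and 0.931 in those genes, and at least once in 80.0% and 90.9%. Lengths are those of a single transcript per gene chosen by annotation, which may not be the form present in these cells. The longest was that of SDHC, at 13566 bases. Across the members the control slope correlated with log10 transcript length with Pearson's r of −0.411 and Spearman's rho of −0.28 (45 genes, a description). With GGACT density r was −0.119. That density and the control rate at 0 h gave an r of 0.412 and a rho of 0.165. ATP5MF had the highest density, 6.56 per 1000 bases, and a rate of 0.587%, and r without it was not computed. With log10 coding length the same rate gave an r of 0.408 and a rho of 0.499. By position, 14 members are overlapped by a gene on the same strand and 21 by a gene on the other strand. SDHD lies opposite TIMM8B, SDHC opposite CFAP126 and ATP5PF opposite GABPA and JAM2. Whether counting used the strand is not given in the sources used here, so reads of such pairs may be mixed.

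The mean profile of the set over the 8 groups was shared closely by genes outside it. Among 8082 genes at or above the median abundance, the 5 with the highest Pearson correlation with it were S100A11 (0.9986), NEDD8 (0.998), NDUFA1 (0.9979), NDUFC2-KCTD14 (0.9978) and NDUFC1 (0.9978). S100A11 is a calcium-binding protein, NEDD8 a ubiquitin-like protein, and the other three are complex I genes or a read-through of one. Within the set the correlation with that profile was lowest for SDHC (0.573), SDHD (0.624), SDHA (0.669), UQCRFS1 (0.727), ATP5MGL (0.737) and UQCRC2 (0.768), and SDHB stood at 0.928. The other 38 members lay between 0.902 and 0.996. Each member is itself part of the mean profile and the genes outside are not, so members and outside genes are not on equal terms. These values cover 8 points each, carry the common shift between genotypes, and are given without a test.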

How the data were processed

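The data are SLAM-seq libraries of polyadenylated RNA from THP-1 cells. The deposited table holds a fraction per gene and library, given here in percent; its values and the assay point to the T-to-C conversion rate, which the file headers do not name. The deposited CPM column, per the file headers, belongs to an unstated library; its values were whole multiples of 0.0265, the worth of 1 read, and gave 37800086 reads. The build was hg38 and the tools named were CASAVA and HISAT2 2.1.0, per the submitters' processing notes. The S columns were read as knockdown by elimination, because C is the initial of control and no label names S.

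Rates were taken as log2 of the percentage plus 0.05 percentage points and fitted with limma 3.58.1 in R 4.3.3, over all 16 libraries, with variances following a trend in log2(CPM + 0.01). The test covered genes at 1 CPM or more with a nonzero rate in some library, with p-values adjusted over all of them by Benjamini-Hochberg at 0.05. Fold changes on this scale understate those of low rates. The genotype effect had time as a factor, slopes came from a line per genotype, and effects at single times from 8 group means. The labels do not say that replicate numbers pair the libraries, and no block was used. Of 28 pairs of groups none had correlated deviations over 0.1 (−0.0211 to 0.0492). Noise within genes lowers such correlations, so they cannot exclude a pairing. No 2 libraries held identical values. The scripts were tested on simulated data.

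The members, lists and tests were chosen with earlier results of these data known. Values in every library are given for the SDH genes, the 3 highest and 3 lowest control slopes of complexes III, IV and V at or above the median CPM of the genes tested, the subunit c genes, ATP5IF1 and members past the threshold for the centred genotype effect. The 5 genes most like the mean profile were named by correlation, and other genes were picked as examples after their values were seen. Alternatives were other pseudocounts, CPM minimums, no variance trend, another centring, a replicate block and leaving out each library; leaving out the read-through gene ATP5MF-PTCD1 and the near-copies UQCRHL and ATP5MGL was added after seeing the data.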

Additional observations from a re-analysis of the deposited data

How the results depend on the processing

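Of 282 member counts under alternatives 258 stayed within 1.5 times the count reported, and of 1150 named effects 1094 kept direction and side of the threshold. The counts that moved were all centred genotype effects. Against 6 members called over all times, 10 were called with a pseudocount of 0.01 (7 higher and 3 lower). Centred on the 75th percentile, 10 were also called (7 higher and 3 lower). With a pseudocount of 0.2, 11 were called, with 34 lacking the CPM filter and 3 lacking the variance trend, all of them lower. At 0 h, against 2 members, these gave 13 with a pseudocount of 0.2, 0 without the filter, 0 without the trend and 1 without the read-through and near-copy genes. At 7.5 h, against 2, 40 were called without the filter and 0 without the trend. Without the filter, 37510 genes entered and 1 library had a median rate of 0, so its centring is void.

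Signs turned for UQCR10 without the filter (−0.424) and for COX7A2 without it (−0.533) and with a pseudocount of 0.2 (−0.00607). The SDHB slope turned without the first control replicate at 0 h (−0.011), 1.5 h (−0.00466) or 4.5 h (−0.0025) and, in knockdown, without 7.5 h replicate 2 (0.00943); it ranged from −0.011 to 0.0281 in control and from −0.0238 to 0.00943 in knockdown. Leaving out each library in turn gave 19 to 28 members called for the control slope, 29 to 37 for the knockdown slope, 44 to 45 for the genotype effect and 4 to 7 for it centred, 0 to 3 at 0 h and 0 to 2 at 7.5 h when centred. With a replicate block 27 members were called for the control slope and 36 for the knockdown slope, and no count moved by over 1.5 times. Slope differences gave 0 members under every alternative run. Depth is unknown, so counting error could not be given.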
